A study of Mus musculus with 12 samples.

Results

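Keratinocytes that carried the mRNA of Krt9 were examined in the epidermis of the glabrous hind paw skin of mice, sequenced as single cells in droplets. Transcripts were counted by their unique molecular identifiers (UMIs), which tag single molecules before amplification. A barcode was called a Krt9 cell when it had at least 3 UMIs of Krt9, no UMI of Cd74 or Cd3e, under 0.5% of its UMIs in Lce1 genes, and under 3 UMIs each in a set of S phase and a set of mitosis genes. The S phase genes were Hist1h1b, Hist1h1a, Pclaf and Esco2, and the mitosis genes were Ube2c, Cenpf, Ccnb1 and Cdc20. Of 140392 deposited barcodes, 125515 had 500 to 6000 genes and at most 5% mitochondrial UMIs, and 5009 of these were Krt9 cells.

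All 12 mice were wild-type C57BL/6J, with 1 library per mouse and no drug given, and were 16 to 18 weeks old. A regular diet (RD, 11% fat) or a high-fat diet (HFD, 42% fat) was started at 6 to 8 weeks of age and given for 10 weeks, with 3 mice of each sex on each diet. The HFD serves as a mouse model of painful diabetic neuropathy. The Krt9 cells numbered 900 in males on RD and 532 in males on HFD, and 2066 and 1511 in females, with 120 to 898 per mouse.

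Keratin 9 is a type I keratin found in the thick, hairless epidermis of palms and soles, where it pairs with keratin 1 in the layers above the basal layer. Mutations in the human gene cause a palmoplantar keratoderma in which these layers blister and thicken. Its expression on the volar surface depends on positional signals from the dermis beneath, among which HOX genes and WNT5A have been described. Because every library came from volar skin, the measurements compare Krt9 cells with their neighbors in the same paw and not with hairy skin.

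The genes that name the population were Krt9 (ENSMUSG00000051617, chr11:100186781-100193246, minus strand) and Chchd10 (ENSMUSG00000049422, chr10:75933130-75937747, plus strand), with Dapk2 (ENSMUSG00000032380, chr9:66158223-66272242, plus strand) and Mycl (ENSMUSG00000028654, chr4:122995652-123002485, plus strand). All 4 are protein-coding and positions are those of GRCm38. Chchd10 encodes a protein of the mitochondrial intermembrane space, Dapk2 a kinase regulated by calcium and calmodulin, and Mycl the L-Myc transcription factor. The 200 bases before the RefSeq start of each gene (build GRCm38.p6) are shown because these 4 genes name the population. Capitals mark matches to TATAA (the core of a TATA box) and to CACCC (the core of sites for Krüppel-like factors). TGANTCA, the AP-1 motif, was searched as well, and each motif was searched on either strand. The TATAA matches found lie on the gene's strand.
Krt9: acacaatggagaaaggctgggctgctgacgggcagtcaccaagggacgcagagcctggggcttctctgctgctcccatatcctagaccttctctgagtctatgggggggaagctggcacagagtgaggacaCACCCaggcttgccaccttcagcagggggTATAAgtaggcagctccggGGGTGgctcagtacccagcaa
Chchd10: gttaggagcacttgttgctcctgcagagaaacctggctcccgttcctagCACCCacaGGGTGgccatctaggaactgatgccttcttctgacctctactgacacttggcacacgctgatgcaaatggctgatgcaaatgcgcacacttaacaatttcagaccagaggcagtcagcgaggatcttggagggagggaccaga
Mycl: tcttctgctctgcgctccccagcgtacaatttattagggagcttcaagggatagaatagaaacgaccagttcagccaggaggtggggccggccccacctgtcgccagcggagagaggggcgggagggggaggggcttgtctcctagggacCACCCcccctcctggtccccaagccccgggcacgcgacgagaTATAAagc
Dapk2: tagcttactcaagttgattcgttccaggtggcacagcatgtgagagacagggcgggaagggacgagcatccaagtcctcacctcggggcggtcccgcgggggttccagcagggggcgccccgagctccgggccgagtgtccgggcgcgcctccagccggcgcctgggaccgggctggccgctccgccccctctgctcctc
The Krt9 sequence runs over chr11:100193247-100193446 on the minus strand. On the plus strand, that of Chchd10 runs over chr10:75932930-75933129, that of Mycl over chr4:122995731-122995930 and that of Dapk2 over chr9:66158026-66158225. The RefSeq start of Mycl lies inside the gene span given above, so that its 200 bases fall within the annotated gene. In the Krt9 promoter the TATAA match began 40 bases before the start, and CACCC matches began 69 and 21 bases before it. Chchd10 had CACCC matches at 151 and 143 bases, Mycl had TATAA at 8 and CACCC at 50 bases, and none of the motifs was found before Dapk2. Among 32851 mouse promoters of the same length, 18.5% held TATAA, 45.5% held CACCC and 5.48% held TGANTCA, each on either strand.

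The Krt9 minimum divided a distribution with a long tail. Of the 5009 cells, 1120 had 3 to 9 UMIs of Krt9, 1150 had 10 to 29, 1638 had 30 to 99, 939 had 100 or more but under 300, and 162 had 300 or more. The median per mouse lay between 23 and 60.5 UMIs. Just inside the limit were 291 cells with exactly 3 UMIs, and just outside it 576 with 2 UMIs, 4191 with 1 and 82846 with none that otherwise met the rule. The Krt9 cells held 78.1 to 91.7% of all Krt9 UMIs of the filtered barcodes of each library. Of 6191 filtered barcodes with at least 3 Krt9 UMIs, 645 were left out for S phase genes, 709 for mitosis genes, 316 for Cd74 or Cd3e and 99 for Lce1 genes, and 529 met more than 1 of these criteria.

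Free RNA of lysed cells can place Krt9 UMIs in any barcode. In Langerhans cells (LCs), the dendritic cells of the epidermis, which do not make keratins, 0 to 1.92% per mouse had 3 or more Krt9 UMIs at a median depth of 2852.5 to 7786 UMIs, against 8275 to 17625 UMIs in Krt9 cells. LCs were filtered barcodes with at least 20 UMIs of Cd74 and 1 of Cd207, and their doublets with keratinocytes were not removed. The LCs with 3 or more Krt9 UMIs numbered 0 to 7 per mouse. Summed over all LCs of a mouse, Krt9 was at a median of 59.5 CPM (0.98 to 339). By their similarity to simulated doublets, 4.05 to 13.95% of the Krt9 cells of a mouse were marked as possible doublets, against 4.81 to 13.3% of all filtered barcodes. Levels are given as CPM, the UMIs of a gene scaled to a common total in each mouse and set of cells. Summed markers of T cells, melanocytes, Merkel cells and endothelial cells reached at most 3.34, 4.89, 3.53 and 7.75 CPM in the Krt9 cells of any mouse. The T cell list holds Cd3e and the LC list holds Cd74, and the rule allows no UMI of either. The sums of these lists are thus limited by the selection. The LC list summed to 27.3 to 66.0 CPM, with Epcam and Mfge8 its only genes at a mean of 5 CPM or more, the sweat duct and gland list to 55.7 to 138 CPM, and the fibroblast list to 19.4 to 34.8 CPM, of which Dcn (decorin) gave 17.9 to 34.1. Dcn was at 95.6 to 156 CPM in Krt14 cells and 3.08 to 12.4 CPM in Krt10 cells, the comparison cells described next. The part of other cell types in the values below was not tested.

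The next question was which other genes mark the cells that carry Krt9. Beside other suprabasal keratinocytes, Krt9 cells held more Krt1, Hhip, Wnt5a, Igfbp2, Chchd10 and Tbx1, and less Krt2 and fewer transcripts of the outermost, cornifying layers. They were set beside keratinocytes of the same mouse that met the rule except that they had fewer than 3 Krt9 UMIs. From these came 47852 Krt10 cells, with at least as many UMIs of the suprabasal keratin Krt10 as of the basal keratin Krt14, and 39222 Krt14 cells, with more Krt14. Krt10 cells also had at least 3 UMIs of Krt10 and Krt14 cells at least 3 of Krt14, a minimum not set for Krt9 cells. UMIs were summed per mouse and set, and differences are given as the median over the 12 mice of the log2 ratio, with 2 CPM added to each value. Since the cells were chosen by Krt9 on the same counts, these differences are a description with no test.

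Chchd10 was at 105, 102 and 127 CPM in the Krt9 cells of the male RD mice and at 107, 103 and 93.2 in the male HFD mice. In females it was at 91.9, 111 and 90.0 CPM on RD and at 89.3, 107 and 91.5 on HFD. In Krt10 cells it lay between 38.2 and 47.7 CPM and in Krt14 cells between 40.8 and 53.5, so that no Krt9 value overlapped either comparison set. The median log2 ratio was 1.20 against Krt10 cells (range 1.09 to 1.58) and 1.05 against Krt14 cells, and was above 0 in 12 of 12 mice for both.

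Mycl was at 43.8, 49.2 and 59.0 CPM in the male RD and 45.7, 51.8 and 62.3 CPM in the male HFD mice. In females it was at 89.3, 101 and 102 CPM on RD and at 87.8, 154 and 98.3 on HFD. Each female was above each male, and within every mouse Krt9 cells were above Krt10 cells (30.9 to 101 CPM, median log2 ratio 0.55) and above Krt14 cells (24.5 to 51.1 CPM, 0.98).

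Dapk2 was higher than in the suprabasal set, and over all Krt9 cells level with the basal set. Its levels in Krt9 cells were 34.7, 30.5 and 47.9 CPM in males on RD and 37.1, 36.7 and 46.8 in males on HFD. In females they were 59.0, 61.1 and 48.9 CPM on RD and 50.2, 109 and 65.3 CPM on HFD. The second female HFD mouse stood apart, for Mycl as well. Against Krt10 cells (13.1 to 44.5 CPM) the median log2 ratio was 1.16, above 0 in 12 of 12 mice. Against Krt14 cells (33.1 to 76.0 CPM) it was -0.09, above 0 in 5 of 12 mice.

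**Figure D1:**
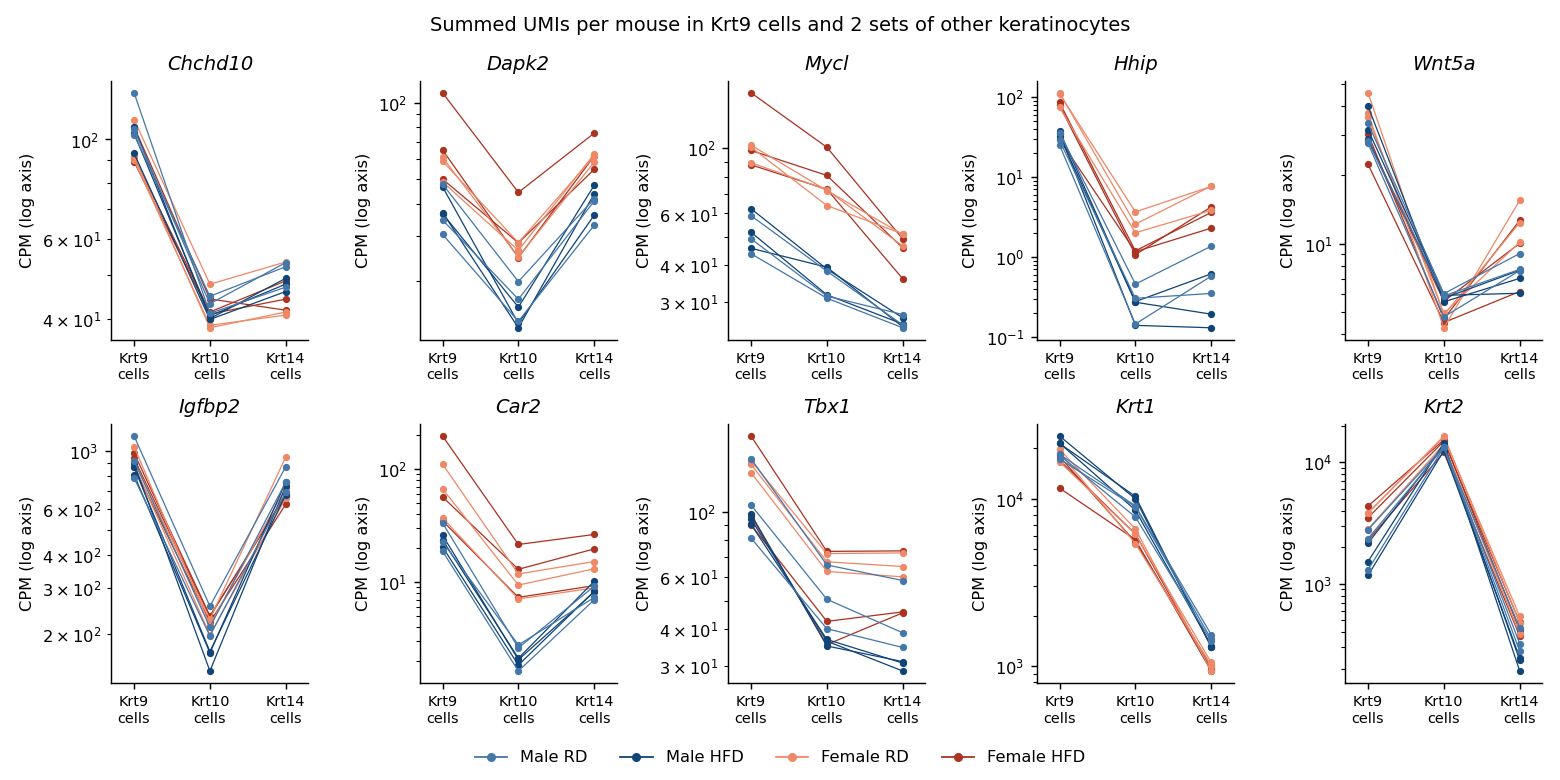
CPM on log axes for 10 genes in Krt9 cells, Krt10 cells and Krt14 cells, with 1 point per mouse, a line joining the sets of a mouse and a color per group of 3 mice. Chchd10 lay at 89.3 CPM or more in the Krt9 cells of each mouse and at 53.5 or less in both other sets, while Dapk2 overlapped between Krt9 and Krt14 cells and Krt2 was highest in Krt10 cells.

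Among genes at 50 CPM or more in Krt9 cells, the largest ratio after Krt9 itself was that of Hhip (chr8:79965851-80058006, minus strand), which encodes a membrane protein that binds hedgehog ligands and dampens their signal. Hhip was at 36.0, 28.7 and 25.2 CPM in male RD and 36.0, 37.6 and 33.0 CPM in male HFD mice. In females it was at 113, 110 and 74.6 CPM on RD and 29.5, 85.8 and 78.8 CPM on HFD. It was at most 3.67 CPM in Krt10 cells and 7.71 in Krt14 cells. Cells with exactly 2 Krt9 UMIs, just outside the rule, held Hhip at a median of 10.52 CPM (3.76 to 41.4), near the 12.7 CPM of cells with exactly 3. The median log2 ratio of Krt9 cells against Krt10 cells was 4.13.

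Several other genes were higher in Krt9 than in Krt10 cells of 12 of 12 mice. Wnt5a (chr14:28504750-28527448, plus strand), a Wnt ligand that acts mainly outside the beta-catenin pathway, was at 22.3 to 45.9 CPM, compared with 4.27 to 6.03 CPM in Krt10 cells and 6.05 to 15.5 in Krt14 cells. Igfbp2, which binds insulin-like growth factors, was at 788 to 1138 CPM against 145 to 256 in Krt10 cells, but 625 to 946 in Krt14 cells. The enzyme carbonic anhydrase 2 (Car2) ranged more widely, from 18.7 to 197 CPM, with the highest value in the first female HFD mouse, and had a median log2 ratio of 2.57 against Krt10 cells. The transcription factor genes Tfap2b, Tbx1 and Id2 had ratios of 1.19, 1.13 and 1.07 against Krt10 cells. Of the remaining genes with the highest ratios, Tpm1 (1.31) encodes a tropomyosin, Cavin1 (1.13) a coat protein of caveolae and Pir (1.09) the nuclear protein pirin, while 4930438A08Rik (1.10) is a gene known by its clone name. Against Krt14 cells Tbx1 (1.23), Id2 (0.67), Car2 (1.56) and 4930438A08Rik (3.95) were higher in 12 of 12 mice as well. Tfap2b (-0.39), Tpm1 (-0.98) and Cavin1 (-1.12) were lower than in Krt14 cells in each mouse, and Pir was higher in 6 of 12 (0.13).

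The keratins of the Krt9 cells differed from those of other suprabasal cells. Krt1, the type II partner of keratin 9, was at 11558 to 23646 CPM against 5398 to 10310 CPM in Krt10 cells, higher in 12 of 12 mice. Krt10 was lower in each mouse (median log2 ratio -0.82), and the ratio was -2.36 for Krt2, a keratin of the upper spinous and granular layers, at 1172 to 4366 CPM against 12091 to 16515. The basal keratins Krt5 and Krt14 were higher than in Krt10 cells, by 0.65 and 1.28, and far lower than in Krt14 cells, by -3.60 and -2.93. Since the comparison sets were divided by Krt10 and Krt14 and the Krt9 cells were not, this intermediate place of Krt14 follows from the selection. LCs held Krt5 and Krt14 at medians of 440 and 1636 CPM, near the 367 and 1934 CPM of Krt9 cells. The lowest ratios against Krt10 cells belonged to Defb6 (-3.06), Lor (-2.83), Flg (-2.79), Orm1 (-2.69) and Hrnr (-2.64), followed by 2310046K23Rik (-2.54), Tmprss4 (-2.52), Stfa1 (-2.42), Krt2 and Klk7 (-2.30). Loricrin, filaggrin and hornerin (Lor, Flg, Hrnr) are structural proteins of the cornified layer, and Klk7 is a protease of its shedding. Of 2572 genes at a mean of 50 CPM or more in Krt9 or Krt10 cells, 490 were higher and 634 lower than in Krt10 cells in 12 of 12 mice, and the median ratio of 17 and 57 of them was 2-fold or more.

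Gene lists were described by their genes at a mean of 5 CPM or more in Krt9 or Krt10 cells. Of all 8624 genes at that level, 12.6% were higher and 15.7% lower than in Krt10 cells in 12 of 12 mice, which is the background for the counts that follow. Among 18 such genes of the cornified envelope, 15 were lower in 12 of 12 mice and none was higher in all, with a list median of -1.25. In barrier lipid synthesis, 19 of 22 genes were lower in each mouse, with a median of -0.63, against a median of -0.02 over all 2572 genes. Within it the ratio was -1.11 for Sptlc3 and -0.90 for Degs1 (ceramide synthesis), and -0.92 for Abca12, which loads lipid into lamellar granules. The rule had left out barcodes rich in Lce1 transcripts from all 3 sets. Against Krt14 cells both lists were higher, with medians of 1.30 and 1.52.

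The list of desmosome genes had a median of -0.04 against Krt10 cells, with 1 of 11 genes higher (Dsg2, 0.62) and 1 lower (Dsg1a, -0.16) in each mouse. Against Krt14 cells 9 of the 11 were higher in each mouse, led by the desmocollin Dsc1 (4.44), where 17.5% of all genes were higher and 38.1% lower. Within the suprabasal list 3 of 13 genes were higher than in Krt10 cells in each mouse, namely Krt1, the fatty acid binding protein Fabp5 (0.72) and the calmodulin-like Calml3 (0.51), and 8 were lower.

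The genes that record position along the limb were examined because Krt9 is a gene of the volar surface. Of 24, only 10 were at a mean of 5 CPM or more in Krt9 or Krt10 cells, and 4 of these were higher in Krt9 than in Krt10 cells in every mouse. They were En1 (0.74), the homeobox gene that specifies the ventral side of the limb, Hoxc10 (0.44), Hoxc9 (0.44) and Wnt5a (2.14). En1 was at 19.6 to 79.8 CPM in Krt9 cells and at 11.9 to 38.9 CPM in Krt10 cells. In Krt14 cells it was at 14.8 to 61.8 CPM, so that the values overlapped, with a median log2 ratio of 0.24. Hoxa13 and Hoxd13, genes of the most distal limb, were at 0 in the Krt9 cells of each mouse.

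The families of the marker genes were examined next. Each list includes its marker gene, chosen with earlier results of these data known, so the marker's own count as higher says nothing about the family. Of 18 genes of the MICOS complex (which shapes the inner membrane of mitochondria) and of CHCHD proteins, 8 were higher than in Krt10 cells in each mouse, against 12.6% of all genes. Apart from Chchd10 the highest was Chchd6 (0.69), and the list median was 0.13. Against Krt14 cells 4 were higher and 4 lower (median -0.05). In the list of DAPK kinases and calmodulins Dapk2 and Calml3 were higher, and 3 genes, among them Calm4 (-0.46) and Calm5 (-1.29), were lower, in each mouse. In the MYC network 1 of 10 genes, Mycl, was higher in each mouse, while Myc was lower in 11 of 12 (-0.27) and Mxd1 (-0.38) and Mxd4 (-0.36), which compete with MYC for MAX, were lower in 12.

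Of 12 Notch pathway genes, the receptor Notch1 (0.50) and the ligand Jag1 (0.86) were higher and 2 genes, among them Notch2 (-0.37), were lower in each mouse, near the 12.6 and 15.7% of all genes. Over all Krt9 cells, Notch1 was level with Krt14 cells (135 against 140 CPM). Of 23 transcription factors of differentiation, Tfap2b and Tfap2c (0.30) were higher in each mouse and 11 were lower, among them Barx2 (-1.83), Ehf (-1.60), Prdm1 (-0.96) and Gata3 (-0.80). Glycolysis had 7 of 15 genes higher in each mouse and none lower, with the glucose transporter Slc2a1 highest (0.82). Against Krt14 cells 6 were higher and 6 lower (median 0.03), and Slc2a1 was lower in each mouse (-0.46). Cholesterol and fatty acid synthesis had 7 of 23 lower and none higher (median -0.33), and lipid uptake and storage 2 of 15 higher and 4 lower (median -0.09). Against Krt14 cells 22 of the 23 synthesis genes were higher in each mouse (median 1.26), against 17.5% of all genes. Lipid uptake and storage had 4 higher and 5 lower there (median -0.12). Of 20 immediate early and heat shock genes, which respond to handling and dissociation, 12 were lower in each mouse and none was higher (median -0.30). In the interferon list 4 of 8 were lower and none was higher in each mouse.

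Keratinocytes also signal to nerve endings and immune cells. Of 16 such genes, 3 were higher in Krt9 than in Krt10 cells in each mouse, near the 12.6% of all genes. Bdnf, a neurotrophin, was at 10.1 to 32.3 CPM against 6.04 to 24.0 (0.74), and the chemokine Cxcl14 was at 19.4 to 193 CPM against 13.9 to 54.9 (1.04). In Krt14 cells Cxcl14 was at 245 to 507 CPM, above each Krt9 value. The channel Panx1 was higher by 0.24. Of the 16, 6 were lower, among them Il18 (-1.67), the neurotrophic ligand Nrtn (-0.80) and Il34 (-0.57), the cytokine on which LCs depend. Of 12 stress and hair follicle genes the defensin Defb3 (1.94) was higher in each mouse, and Krt17 (-1.35), Sprr1a (-1.23) and Krt80 (-0.37) were among 5 that were lower.

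**Figure D2:**
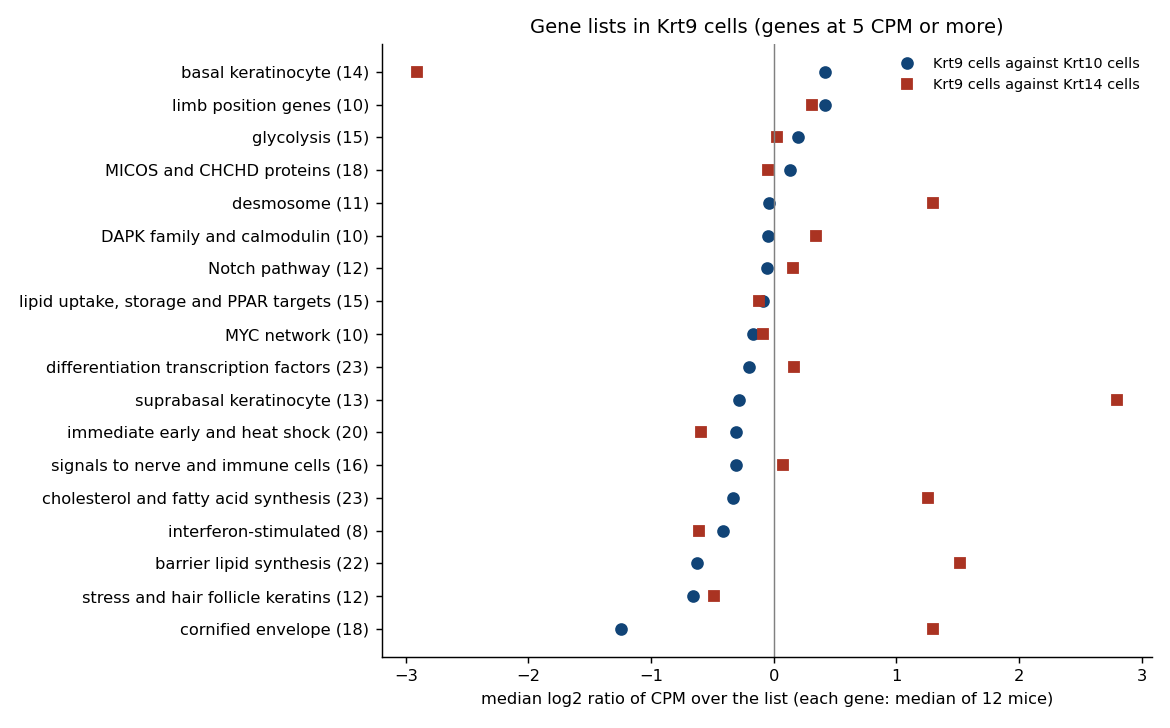
Median log2 ratio of CPM for 18 gene lists (number of genes at 5 CPM or more in brackets), each gene first summarized as its median over 12 mice, for Krt9 cells against Krt10 cells (circles) and against Krt14 cells (squares). Basal genes lay at 0.42 against Krt10 cells and at -2.91 against Krt14 cells, and the cornified envelope at -1.25 and 1.30. Among Krt10-high Krt9 cells alone the basal list lay at -0.38 against Krt10 cells.

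The Krt9 cells were themselves of mixed state. In 3964 of them Krt10 UMIs were at least as many as those of Krt14, and in 1045 (20 to 203 per mouse) Krt14 was in excess, so the comparison was repeated within each state. This split was chosen after the data had been seen, and it likewise carries no test. Chchd10 was higher by 1.12 in Krt10-high Krt9 cells against Krt10 cells and by 1.45 in Krt14-high Krt9 cells against Krt14 cells. Dapk2 was higher by 0.95 and 0.77 and Mycl by 0.51 and 1.39, each in 12 of 12 mice and in both states. Dapk2 was thus level with Krt14 cells over all Krt9 cells, and above them among Krt14-high cells.

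Hhip (4.17 and 3.55), Car2 (2.55 and 1.95), Wnt5a (2.13 and 1.77), Tbx1 (1.15 and 1.15) and Krt1 (1.39 and 2.60) were also higher within both states, and Krt2 was lower (-2.07 and -1.03). Krt14 itself was at -0.23 in the Krt10-high state, against 1.28 over all Krt9 cells in the comparison with Krt10 cells. In the Krt14-high state Krt14 (-0.66), Tpm1 (-0.53) and Cavin1 (-0.09) were below Krt14 cells, as over all Krt9 cells, by less. Tfap2b, which was below Krt14 cells over all Krt9 cells, was higher in 12 of 12 mice within both states (0.98 and 0.53). Of 4937 genes at 20 CPM or more in Krt9 cells or in both comparison sets, 171 were higher and 213 lower in 12 of 12 mice in both states. Only 11 were 2-fold or more higher by the median in both, among them Krt9, Hhip, 4930438A08Rik, Krt1, Car2, Wnt5a, Chchd10, Tmem266, Tbx1 and Igfbp5, and 17 were at least 2-fold lower, among them Barx2, Krt17, Sprr1a, Ifitm3, Epcam and Krt2. Defb3 was higher in the Krt10-high state (2.18) and level in the Krt14-high state (-0.06). Notch1 (0.39 and 0.59) and Jag1 (0.83 and 0.64) were higher in 12 of 12 mice in both states. Slc2a1 was higher in 12 of 12 mice in the Krt10-high state (0.58) and in 7 of 12 in the Krt14-high state (0.05). The basal list turned from 0.42 over all Krt9 cells to -0.38 in the Krt10-high state, with 0 of 14 genes higher in 12 mice. In the Krt14-high state it was at -1.15, with 13 of 14 genes lower in 12 mice. There 9 of 13 suprabasal genes were higher in 12 mice (median 1.05), so the Krt14-high cells were matched to Krt14 cells only in part. Krt1 (7182 against 1177 CPM), 4930438A08Rik (43.9 against 3.26) and Mycl (51.6 against 31.6) had higher medians in Krt10 than in Krt14 cells. Chchd10, Hhip, Wnt5a and Car2 did not. Of the limb position genes 4 of 10 were higher in 12 mice in the Krt10-high and 1 in the Krt14-high state, and of the 16 genes that signal to nerve and immune cells 1 and 0. Of the 18 MICOS and CHCHD genes 6 and 2 were higher, Chchd10 included. Among all 8624 genes, 7.62% were higher in 12 mice in the Krt10-high and 4.19% in the Krt14-high state. The cornified envelope had a median of -1.23 in the Krt10-high and -0.36 in the Krt14-high state, and the immediate early and heat shock list of -0.35 and -0.45.

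The share of cells with a UMI was compared at equal depth. After thinning to 3000 UMIs, Chchd10 was detected in a median over mice of 27.8% of Krt9 cells, 13.0% of Krt10 cells, 11.0% of Krt14 cells and 3.54% of LCs. Dapk2 was detected in 14.7, 7.36, 13.3 and 1.40% of these sets, and Mycl in 20.6, 15.2, 8.17 and 4.85%. Without thinning, the share of Krt9 cells with a Chchd10 UMI was 63.0 to 82.4% per mouse, compared with 30.2 to 46.9% of Krt10 cells.

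How the rest of the program varied with the amount of Krt9 was examined by dividing the Krt9 cells of each mouse into 4 equal parts by the Krt9 share of their UMIs. Cells with the most Krt9 held more Krt1 and desmosome transcripts, and those with the least held more basal transcripts. Krt1 had a median of 11243 CPM in the bottom part and 28816 CPM in the top part, and the top part exceeded the bottom one in 12 of 12 mice (median log2 ratio 1.37). This, too, is a description with no test.

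Other genes among the highest in the top part were Hhip (2.21), the secreted protease inhibitor homologs Wfdc18 (1.99) and Wfdc21 (1.69), Serpinb12 (1.82), Dsc1 (1.34), Serpina12 (1.32) and the connexin Gjb2 (1.15). These were higher in 12 of 12 mice except Wfdc21 and Serpina12, which were higher in 10. Lowest in the top part, in at least 11 of 12 mice, were Krt14 (-3.25), Krt5 (-3.10), Krt15 (-2.59), Ftl1 (-2.52), Col17a1 (-2.501), a collagen that anchors basal cells, and Igfbp3 (-2.38). Slc6a6 (-2.36), Tspo (-2.32), Krt2 (-2.32) and Ifitm3 (-2.11) followed. Of 2342 genes at 50 CPM or more, 178 were higher and 239 lower in the top part in 12 of 12 mice, 11 and 22 of them by 2-fold or more at the median.

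Chchd10 was close to level across the parts. Its median was 96.3 CPM in the bottom part and 88.8 in the top part, with a log2 ratio of -0.06 and 5 of 12 mice above 0. Mycl was level as well (-0.04), and Dapk2 was lower in the top part in 12 of 12 mice (-0.70). Wnt5a was higher (0.95, 12 of 12 mice), as were 8 of the 11 desmosome genes in each mouse, against 3.01% of all genes at 5 CPM or more. Fos, an immediate early gene, had a ratio of -0.26, with 2 of 12 mice above 0.

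**Figure D3:**
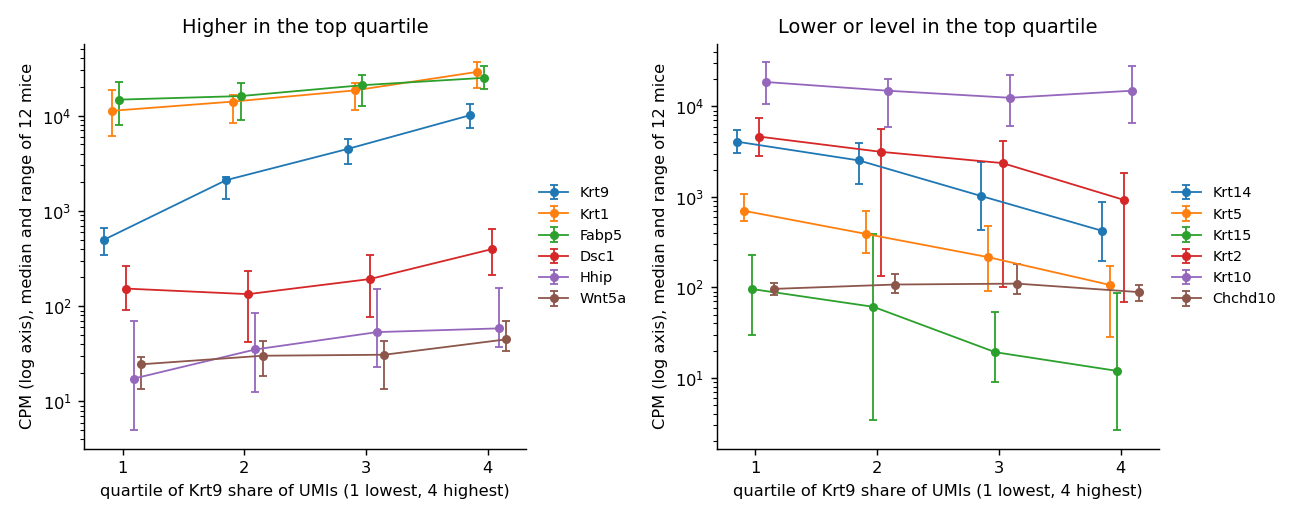
CPM on log axes in the 4 equal parts of the Krt9 cells of each mouse, ordered by the Krt9 share of their UMIs, as the median (points) and range (bars) of 12 mice. Krt1, Dsc1, Hhip and Wnt5a were higher in the top part, Krt14, Krt5, Krt15 and Krt2 were lower, and Chchd10 was level.

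The effect of diet on the number of Krt9 cells was then compared. The share of Krt9 cells among filtered barcodes overlapped between HFD and RD mice in both sexes. It was 3.15, 2.08 and 1.95% in male RD mice (2.39 ± 0.66, SD, n = 3) and 1.95, 3.08 and 1.51% in male HFD mice (2.18 ± 0.81). The male groups overlapped, and HFD minus RD was -0.21 percentage points (p = 0.6, exact permutation, two-sided). In females it was 6.1, 7.05 and 5.40% on RD (6.18 ± 0.83, SD, n = 3) and 3.90, 4.98 and 5.95% on HFD (4.94 ± 1.03), a difference of -1.24 percentage points with overlapping groups (exact permutation p = 0.2). With 3 mice against 3 the smallest p is 0.1. The exact 95% binomial interval of a single mouse's share reached 0.23 to 0.49 percentage points to either side and covers counting error only.

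The share of Krt9 cells with at least as much Krt10 as Krt14 overlapped between the diets. It was 82.3 ± 3.48% on RD and 81.7 ± 2.86% on HFD in males (SD, n = 3, exact permutation p = 0.9), and 78.7 ± 3.88% and 76.4 ± 6.14% in females (exact permutation p = 0.7).

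Females had more Krt9 cells than males on both diets. The mean over 6 mice was 2.29 ± 0.67% in males and 5.56 ± 1.08% in females, a male minus female difference of -3.28 percentage points without overlap (p = 0.00216 by exact permutation, two-sided, which is the lowest this number of mice can give). Within RD the difference was -3.79 and within HFD -2.76 percentage points (exact permutation p = 0.1 for each, n = 3). At an equal depth of 3000 UMIs the means were 2.12 and 5.34% on RD and 1.95 and 4.04% on HFD. LCs with at least 1 Krt9 UMI were also more common in females, at 4.62 to 11.0% per mouse against 0.55 to 4.71% in males. Those with at least 3 made up 1.26 to 1.85% in females against 0 to 1.92% in males. LC depth was higher in females too, at medians of 5846 to 7786 against 2852.5 to 5618 UMIs. The part of free RNA, or of doublets of LCs with keratinocytes, in these sex differences was not tested. According to the file headers, the counts of all 6 male mice had been made with Cell Ranger 6.1.0 and those of all 6 female mice with 7.2.0. Sex and counting software cannot be told apart here, in this or any other contrast of males with females.

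**Figure D4:**
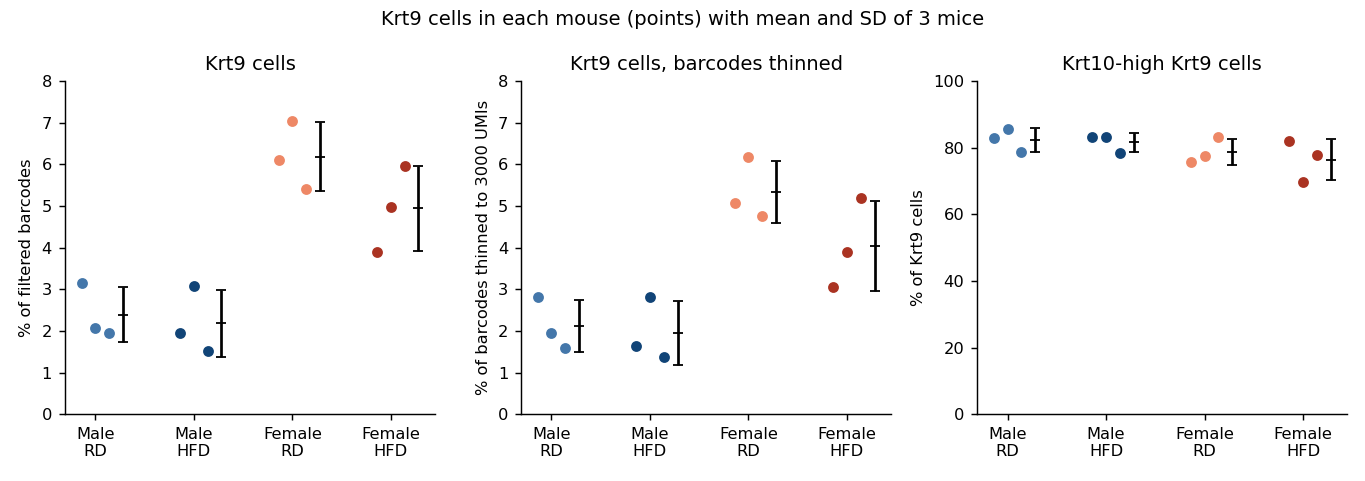
Krt9 cells as a percentage of filtered barcodes (left), the same with each barcode thinned to 3000 UMIs (middle), and Krt10-high cells as a percentage of Krt9 cells (right), with 1 point per mouse and the mean with SD of 3 mice beside it. Each female value in the left panel, 3.90 to 7.05%, was above each male value, 1.51 to 3.15%, and the diets overlapped within each sex.

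Gene expression in Krt9 cells was compared between the diets on UMIs summed per mouse (2392789 to 11727240 UMIs), where the mouse is the replicate. In males 0 of 8728 genes passed an adjusted p of 0.05 in the quasi-likelihood test of edgeR (percent called 0), 556 had an unadjusted p under 0.05 and the smallest adjusted p was 0.0756. DESeq2 called 11. In females 0 of 11386 passed with edgeR (percent called 0), with 1595 at an unadjusted p under 0.05 and a smallest adjusted p of 0.066, and DESeq2 called 57. Without the second female HFD mouse edgeR called 42 genes in females, and without the third male HFD mouse 7 in males.

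Chchd10, Dapk2 and Mycl did not pass the test for diet. The levels of Krt9 are a description with no test. Krt9, by which the cells were chosen, was at 4602, 3865 and 3269 CPM on RD and 6189, 4933 and 4874 CPM on HFD in males (TMM-scaled). The female values were 5546, 4827 and 4621 CPM on RD and 3666, 3046 and 4492 CPM on HFD. HFD values were all above RD values in males and all below them in females, while the diets did not overlap for 11.7% of all genes in males and 20.9% in females. Chchd10 was at 103 ± 8.83 CPM on HFD and 111 ± 9.83 CPM on RD in males (TMM-scaled, SD, n = 3, log2 change -0.10 ± 0.11 SE, edgeR adjusted p = 0.916), and at 95.0 ± 4.67 and 98.5 ± 10.9 in females (-0.05 ± 0.10 SE, adjusted p = 0.841). The log2 change of Dapk2 was 0.14 in males and 0.37 in females, and that of Mycl 0.12 and 0.18, all with adjusted p of 0.452 or more. Wnt5a was at 34.3, 27.7 and 27.1 CPM on RD and 41.3, 32.3 and 28.8 on HFD in males (0.17). In females it was at 45.7, 37.4 and 36.9 on RD and 23.4, 26.7 and 30.2 on HFD. The female diets did not overlap (20.9% of all genes), but the change of -0.58 did not pass adjustment over all genes (edgeR adjusted p = 0.119), nor did the difference between the sexes (0.74, adjusted p = 0.217).

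Among the genes with the smallest p in males, none past the threshold, were Wfdc18 (1.25), Crip1 (-1.12), Serpinb3a (1.86), Klk10 (-1.20), Tmprss11d (1.49), Phlda1 (1.13), Sprr1b (0.73) and the retinol binding protein Rbp2 (0.94), all as log2 HFD over RD. In females these were Slc27a3 (1.47), a fatty acid transport protein, Coa3 (0.68), Nckap5 (1.09), Ncbp2 (0.71), the basal keratin Krt15 (1.64), Hnrnph1 (0.55) and Nfe2l2 (-0.54), which encodes the oxidative stress factor NRF2. Krt15 was at 18.4, 32.3 and 24.0 CPM on RD and 53.8, 90.4 and 89.6 on HFD in females.

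No gene of any list passed the test for diet, as no gene did overall. Barrier lipid synthesis had a median of 0.15 in males, with 16 of 23 genes above 0, and of -0.14 in females, with 21 of 23 below 0. Cholesterol and fatty acid synthesis was at -0.01 in males and -0.31 in females, where 21 of 24 genes were below 0. In the interferon list 8 of 9 genes were above 0 in females (median 0.27) and 3 of 7 in males (-0.0046). Over all genes the median was -0.00035 in males and 0.0035 in females. The suprabasal and desmosome lists, which both hold Dsg1a, Dsg1b, Dsc1 and Dsc2, leaned the same way as barrier lipid synthesis. In males 11 of 14 and 10 of 12 of their genes were above 0, and in females 13 of 15 and 11 of 12 were below. Of the basal genes 11 of 14 were below 0 in males and 9 of 16 above 0 in females. These signs were not tested.

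Whether the diet difference depended on sex was tested directly with an interaction term over all 12 mice. Of 11250 genes 5 passed (0.0444%), with 1 higher (0.00889%) and 4 lower (0.0356%) in males relative to females, and 1223 had an unadjusted p under 0.05. These 5 were Wfdc18 (chr11:83709015-83711348, plus strand), Crip1, a small LIM protein, Coa3, an assembly factor of cytochrome c oxidase, Zranb2, a splicing factor, and the transcript 2310009A05Rik, each at an edgeR adjusted p of 0.0461. Wfdc18 was at 191, 136 and 155 CPM in male RD and 385, 517 and 255 CPM in male HFD mice. In females it was at 208, 148 and 152 CPM on RD and 115, 126 and 140 CPM on HFD. The HFD values were all above the RD values in males and all below them in females, and the difference of the log2 changes was 1.68 ± 0.28 (SE).

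Crip1 showed the opposite pattern. It was at 113, 90.1 and 119 CPM in male RD and 44.9, 38.8 and 67.9 CPM in male HFD mice, against 80.9, 76.7 and 81.6 in female RD and 91.4, 89.6 and 85.8 in female HFD mice (difference -1.28 ± 0.21 SE). For 2310009A05Rik (-1.11), Zranb2 (-1.02) and Coa3 (-0.83) most of the difference lay in the females, where Zranb2 went from 23.2 to 27.2 CPM on RD to 37.3 to 52.2 CPM on HFD. The 5 calls lay close to the threshold: with another scaling of the same counts (RLE) 0 genes passed, and with DESeq2 51 passed, among them all 5. By edgeR no gene of the lists passed, Chchd10, Dapk2 and Mycl included, with differences of -0.04, -0.23 and -0.06.

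**Figure D5:**
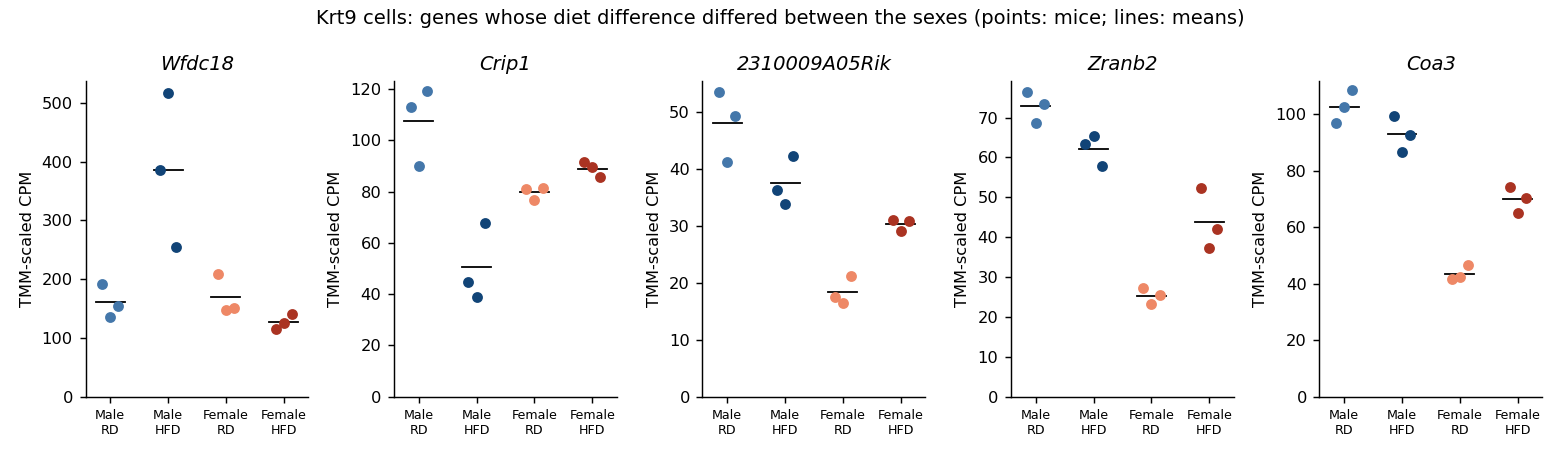
TMM-scaled CPM of 5 genes in the Krt9 cells of each mouse (points) with the mean of each group of 3 (lines), on axes that start at 0. In males Wfdc18 lay at 136 to 191 on RD and 255 to 517 on HFD, and in females at 148 to 208 and 115 to 140, while Zranb2 and Coa3 differed more between the diets in females.

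The Krt9 cells of males and females differed in most genes. With diet as a covariate, 7042 of 11015 genes passed (63.9%), with 3388 higher in males (30.8%) and 3654 lower (33.2%). The scaling bears on this split. The TMM factors moved the log2 changes by a median of 0.43 toward males, and by the ratio of unscaled CPM 2499 of the same genes were higher in males and 4543 in females. The median mitochondrial share of Krt9 cells was 3.10 to 3.63% per mouse in males and 2.18 to 2.82% in females, and its part in these differences was not tested. The software versions above divide the mice in the same way, and 4 genes at 5 CPM or more in the Krt9 cells of each female were at 0 in each male. Among these 1600010M07Rik, an antisense transcript, was at 19.4 to 30.6 CPM (TMM-scaled) in the 6 females. Tsix, the antisense transcript of Xist, was at 7.97 to 13.7 CPM in them. Saa1, an acute phase protein, was at 8.53 to 31.3 CPM in males and at 0.33 or less in females.

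All 18 tested genes of the cornified envelope were higher in males (100% against 63.9% of all genes), by a median of 2.14 with scaling and 1.41 on unscaled CPM, and all 18 were above 0 by both. Flg was at 409 ± 336 CPM in males and 55.1 ± 39.7 CPM in females (TMM-scaled, SD, n = 6, edgeR adjusted p = 6.8e-05). The spread of Flg between male mice was wide, and the groups overlapped. LCs held Flg at a median over mice of 269 CPM (unscaled, 11.9 to 2919), against 115 CPM (23.5 to 776) in Krt9 cells, and Lor at 1005 against 217 CPM. The part of free RNA or doublets in the levels of cornified envelope genes and in their sex difference was not tested. Of 13 limb position genes 8 were lower in males and 1 was higher (69.2% called), with a median of -0.47 scaled and -0.75 unscaled. Over all tested genes these medians were -0.03 and -0.37. En1 was at 29.6 ± 6.14 CPM in males and 54.7 ± 8.48 CPM in females (-0.90, edgeR adjusted p = 7.94e-06). Of 14 Notch pathway genes 9 were lower in males and none was higher (median -0.52), a called share of 64.3% against 63.9% of all genes. Among them was Jag1 (-0.77, edgeR adjusted p = 1.71e-07). All 14 genes of the list were below 0 on unscaled CPM, where the median over all tested genes was itself at -0.37.

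Of the marker genes, Mycl was lower in males (-0.58 ± 0.11 SE, edgeR adjusted p = 0.000155), and was lower by 0.99 on unscaled CPM. Chchd10 was higher in males by 0.58 ± 0.08 (SE) with scaling (edgeR adjusted p = 2.85e-06), but by 0.13 on unscaled CPM. Dapk2 did not pass (-0.31, adjusted p = 0.0679). Hhip was lower in males (-0.83 ± 0.22 SE, edgeR adjusted p = 0.00294), with overlap through the first female HFD mouse. Of 18 MICOS and CHCHD genes 13 passed as higher in males (30.8% of all genes), as did 72 of 77 cytosolic ribosomal protein genes and 78 of 87 nuclear genes of the respiratory chain. The MICOS and CHCHD list had a median of 0.49 that fell to 0.06 on unscaled CPM.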

How the data were processed

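The authors deposited UMI counts per gene and barcode for each mouse, with no normalization, from 10x Genomics 3' libraries of dispase- and TrypLE-dissociated epidermis. The submitters' processing notes name Cell Ranger 7.2.0 and Seurat 5.0.0, while the file headers give 6.1.0 for males. Libraries held 134449247 to 194673581 UMIs in 7370 to 16254 barcodes, and pairs of libraries shared 11 to 59 filtered barcodes.

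UMIs of the Krt9 cells were summed per mouse and fitted in edgeR 4.0.16 (quasi-likelihood test, TMM scaling, filterByExpr), limma 3.58.1 and R 4.3.3, with Benjamini-Hochberg adjustment. DESeq2 1.42.0 was an alternative. For shares, exact permutation was used (scipy 1.17.1, two-sided). Log2 ratios of summed UMIs used 2 CPM added to each value. Doublets were scored against simulated doublets and kept in the main values. The Krt9 cells, the gene lists and the tests were chosen with earlier results of these data known. Named genes were those of the lists, the 10 with the largest change among genes past the threshold whose groups do not overlap (or of smallest p), and the highest and lowest against Krt10 cells and between Krt9 parts. In the sex comparison this rule gave genes at 0 in males, of which only some are shown. Igfbp5, Tmem266 and the other genes listed as differing in both states were named after their values were seen. Xist and Y-linked genes matched the labelled sex of all 12 mice. Replicate numbers were not used as pairs in the main fits. In males same-numbered mice of both diets correlated at -0.014, 0.11 and 0.13, and other pairs at -0.15 to 0.045. In females same-numbered pairs were at -0.09 to 0.086 and other pairs at -0.12 to 0.17. With so few pairs, whether the numbers pair the mice cannot be told. Each mouse is 1 animal and 1 library, so that p-values measure the spread between these mice. The steps were tested on simulated data. Some genes are not reported here.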

Additional observations from a re-analysis of the deposited data

Results flagged for a closer look

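In 5 genes the diet difference in Krt9 cells differed between the sexes by the interaction test, as the difference of log2 HFD over RD in males minus that in females. These were Wfdc18 at 1.68, Crip1 at -1.28, 2310009A05Rik at -1.11, Zranb2 at -1.02 and Coa3 at -0.83 (edgeR adjusted p = 0.0461 for each). With RLE scaling 0 genes passed, and 0 to 3 passed when any 1 of the 12 mice was left out. Within the sexes, the log2 change was taken from group means of log2(CPM + 2) rather than from the fit, so that it does not add up exactly to the values above. It was 1.21 in males and -0.40 in females for Wfdc18, and -1.09 and 0.15 for Crip1. Values were -0.34 and 0.67 for 2310009A05Rik, -0.22 and 0.73 for Zranb2, and -0.14 and 0.66 for Coa3. Wfdc18 was also among the genes that were higher in the cells with the most Krt9 (1.99, 12 of 12 mice). Crip1 had a median of 159 CPM in the bottom and 39.2 CPM in the top Krt9 part, and of 509 CPM in Krt14 cells. The interaction had a median of -0.25 over basal genes, 0.36 over suprabasal and 0.39 over desmosome genes, against -0.02 over all genes. The suprabasal and desmosome lists share genes. The part that the state of the cells or the software version, which differs between the sexes, has in these differences was not tested.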

How the results depend on the processing

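Few mice per group and counts of genes near the threshold limit the diet results. The number of diet genes in males, 0, became 11 with DESeq2, 99 without the filter on low counts, 10 in Krt10-high cells, 2 with cells thinned to 3000 UMIs and 1 with all 12 mice in the fit, and 0 to 7 without 1 mouse (5 without male RD 2, 2 without male RD 3, 7 without male HFD 3). In females 0 became 57 with DESeq2, 427 without the filter and 26 with all mice, and 0 to 42 without 1 mouse (42 without female HFD 2, 6 without female HFD 1, 3 without female HFD 3, 1 without female RD 3). With the replicate number as a block, 25, 1 and 11 genes were called for male diet, female diet and the interaction. Whether these numbers pair the mice cannot be told. The 5 interaction genes became 0 with RLE scaling, with at least 10 Krt9 UMIs, without doublet-scored cells or with up to 10% mitochondrial UMIs, 1 in Krt10-high cells, 2 with thinning, 51 with DESeq2, 217 without the filter and 0 to 3 when any 1 of the 12 mice was left out. The cause was not tested. The 7042 sex genes became 4215 with thinned cells, where fewer UMIs entered, and 6706 to 7122 without 1 mouse.

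Without 1 mouse the diet difference in the share of Krt9 cells ranged from -0.66 to 0.17 percentage points in males (0.17 without male RD 1 and 0.13 without male HFD 3) and from -1.74 to -0.72 in females, and the sex difference from -3.61 to -2.98. The Krt10-high share ranged from -2.48 to 1.02 in males (0.98 without male RD 2, 1.02 without male HFD 3) and from -5.02 to 1.03 in females (1.03 without female HFD 2), and was 4.65 in males with 4 times as much Krt10 as Krt14 required. With Krt14-high Krt9 cells against Krt14 cells, matched only in part and added after seeing the data, Chchd10 was at 1.45, Dapk2 at 0.77 and Mycl at 1.39. There Tpm1 was at -0.53, Cavin1 at -0.094 and Krt14 at -0.66, opposite in sign to their ratios against Krt10 cells but not to those of all Krt9 cells against Krt14 cells. With Krt10-high cells against Krt10 cells Krt14 reversed to -0.23.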
